A study of Caenorhabditis elegans with 2 samples.

Results

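The genes described here are 37 transcription factor genes of Caenorhabditis elegans that act in the making of neurons and carry no homeobox. They were chosen by name from known function, with the signal and place of the peaks of these data already in view, and they are 37 of the 19973 protein-coding genes on the nuclear chromosomes. All 37 symbols matched a gene, and 0 of the 37 RefSeq product names mention a homeobox. The binding measured is that of CEH-43, the worm Distal-less type homeodomain protein, in embryos of strain OP699, which carries the unc-119(tm4063) allele and the integrated transgene wgIs699. The transgene supplies CEH-43 with TY1, EGFP and 3xFLAG tags together with unc-119(+). Chromatin immunoprecipitation with an anti-GFP antibody was followed by sequencing in 2 biological replicates of this 1 group, which share the strain and its transgene. Per the labels, embryos from egg bleaching were of mixed stage and mixed sex with a stated age of 3 hours, and chromatin was sonicated to 200 to 800 bp. Embryos without the tag were not analysed here, nor were other stages. Whole embryos hold many cell types, so binding in fewer cells and weaker binding per cell cannot be told apart.

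Neurogenesis in the worm runs through basic helix-loop-helix (bHLH) proneural factors, which pair with the E protein HLH-2 and set lineages on a neural course, and through SoxB factors of neural progenitors. Later, terminal selectors such as the EBF factor UNC-3, the ETS factor ETS-5 or the Glass-type zinc finger CHE-1 switch on and hold the genes that give a neuron type its identity. CEH-43 is known as such a regulator of dopamine neurons, and homeodomains of its type bind a core of TAATTA or TAATTG. The 37 genes were divided by known function into 10 early proneural genes, 9 terminal selectors and 18 others, mainly regulators of subtype, left-right asymmetry or glia. The division rests on general knowledge and was made with earlier results of these data known. The genes hlh-3, hlh-4, egl-44 and daf-19 could be placed otherwise.

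For each gene, summits were taken that lay in the gene or within 5000 bp of any of its annotated starts. The authors' thresholded list, made from both replicates, holds 975 summits on the nuclear chromosomes and is identical to the strongest part of their relaxed list of 30000. Ranks, and the length of the thresholded list, also count its summits outside the nuclear chromosomes. The first rank of the relaxed list past the thresholded summits is therefore 999. Signal is the authors' value per peak on a scale not given in the sources used here, so it was used for ranks within a list, rank 1 being the strongest. Of the 37 genes, 7 had a thresholded summit, with 9 summits in all. These were lin-32, cnd-1, ham-1 and sox-2 among the early genes and ets-5, egl-46 and daf-19 among the terminal selectors. The share, 18.9%, compares with 10.1% of all nuclear protein-coding genes under the same rule. Since the list was chosen with these peaks known, this is a description.

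The sequences at these summits are shown because they hold, or lack, the homeodomain core beside the 7 genes. They come from the RefSeq copy of WBcel235, the ce11 assembly, and run 50 bp to each side of the summit on the forward strand. The exception is cnd-1, where 30 bases around the core are given. Capitals mark TAATTA or TAATTG on either strand (TAATTA is its own reverse complement, and TAATTG reads CAATTA on the other strand).
egl-46, chrV:6684714-6684814: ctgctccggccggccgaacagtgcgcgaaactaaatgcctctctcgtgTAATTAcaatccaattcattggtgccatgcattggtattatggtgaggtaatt
cnd-1, chrIII:5240182-5240211: tgtaaattaTAATTATAATTAttattatgc
daf-19 intron, chrII:10163679-10163779: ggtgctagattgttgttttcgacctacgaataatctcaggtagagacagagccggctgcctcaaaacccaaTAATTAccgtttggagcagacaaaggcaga
ham-1 intron, chrIV:12544721-12544821: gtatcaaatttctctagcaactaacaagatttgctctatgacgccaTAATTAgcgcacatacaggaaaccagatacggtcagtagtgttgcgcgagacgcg
ham-1 past its end, chrIV:12546100-12546200: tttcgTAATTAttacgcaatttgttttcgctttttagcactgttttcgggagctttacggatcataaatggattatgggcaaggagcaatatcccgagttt
sox-2, chrX:7456086-7456186: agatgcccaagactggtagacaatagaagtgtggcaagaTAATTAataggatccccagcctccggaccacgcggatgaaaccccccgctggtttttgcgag
daf-19 upstream, chrII:10169557-10169657: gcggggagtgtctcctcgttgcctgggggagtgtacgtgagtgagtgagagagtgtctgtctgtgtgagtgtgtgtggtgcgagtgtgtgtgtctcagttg

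The remaining pair of summits lay at tRNA genes and is shown on the strand of the tRNA gene, the reverse strand. Here capitals mark GTTCNANNC, letters of the internal B box of tRNA promoters, a word chosen after these sequences were seen. It was searched on both strands within 50 bp and lay at 61.7% of the 154 thresholded summits within 100 bp of a tRNA gene and at 6.09% of the 821 other nuclear ones. The B box lies inside tRNA genes, and the pair shown is among the 154. These shares therefore describe where the word lies and not what is bound there.
ets-5, chrX:5085627-5085727: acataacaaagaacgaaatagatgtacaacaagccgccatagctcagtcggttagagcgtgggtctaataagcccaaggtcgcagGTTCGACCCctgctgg
lin-32, chrX:2227111-2227211: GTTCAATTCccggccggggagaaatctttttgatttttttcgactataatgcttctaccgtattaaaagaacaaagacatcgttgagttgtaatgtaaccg

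Among the early genes, lin-32, the Atonal-type proneural gene of touch neuron and sensory ray lineages, had the highest-ranked site. Its signal was 254 at rank 270 in the thresholded list, with a signal of 102 at rank 428 in replicate 1 and of 154 at rank 206 in replicate 2. The site ranked high in both replicates, but it lay 1894 bp past the end of the gene and 30 bp from a tRNA gene, WBGene00023139, and had no core word within 100 bp. Its window is shared with hex-1. The other summits of the relaxed list at lin-32 ranked past 3000.

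The cnd-1 site followed at rank 319, with a signal of 232; cnd-1 encodes the NeuroD-type factor of embryonic neuroblasts. Replicate 1 had a summit at the same base at rank 189 with a signal of 144, while the nearest summit of replicate 2 was 121 bp away, at rank 777 with a signal of 84.8. Replicate 2 thus had no summit within the 100 bp used to match lists. The site lay 407 bp past the end of cnd-1 and in the 3′ UTR of prx-10, a peroxin gene, whose start, 2478 bp away, was nearer than that of cnd-1 at 4455 bp. With 4 core words within 100 bp, the nearest 7 bp from the summit, it had the most of the 9 sites. A weaker summit 4303 bp upstream of cnd-1, at rank 2527, also had the core word.

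At ham-1, which encodes a Storkhead-box winged helix protein of asymmetric neuroblast division, both sites had the core word. The site past the gene had a signal of 183 at rank 531, with ranks 952 in replicate 1 (signal 73.2) and 414 in replicate 2 (signal 109). The intronic site, 2588 bp downstream of the start, had a signal of 171 at rank 611, with ranks 618 in replicate 1 (signal 87.5) and 991 in replicate 2 (signal 77.9). All 4 replicate ranks were better than 999, the first rank past the full length of the thresholded list. The order of the sites differed between replicates. A TAATTA covered the summit base of the intronic site and lay 40 bp from the summit of the other. The start nearest to the site past the gene was that of ipmk-1, an inositol polyphosphate kinase gene, 1974 bp away.

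The SoxB gene sox-2, of neural progenitors, had the weakest of the 9 sites, with a signal of 156 at rank 763. It ranked 783 in replicate 1 (signal 78.7) and 1353 in replicate 2 (signal 70.5), so it fell outside the strongest peaks of replicate 2 when as many were taken as the thresholded list holds. The summit lay 2144 bp past the gene end, in a non-coding RNA gene, K08A8.22, with TAATTA 6 bp away, and no other protein-coding gene had it in its window. The early genes just outside the threshold were ngn-1, the neurogenin gene, at rank 1025 (signal 138) and hlh-14, an Achaete-Scute gene, at rank 1043 (signal 137).

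Among the terminal selectors, ets-5, required for the identity of the carbon dioxide sensing BAG neurons, had the strongest site of all 37 genes. Its signal was 532 at rank 52, with ranks 67 in replicate 1 (signal 227) and 42 in replicate 2 (signal 307). The summit lay 1151 bp upstream of the first start, inside a tRNA gene, WBGene00022958 (chromosome X, 5085622 to 5085695), and had no core word within 100 bp. The other 4 summits of the relaxed list at ets-5 ranked past 3000. How much of the signal at ets-5 and lin-32 belongs to the tRNA gene was not tested.

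The site at egl-46, which encodes an INSM-type zinc finger protein that acts with the TEAD factor EGL-44 in touch-type and other neurons, was the strongest away from tRNA genes. Its signal was 281 at rank 209, with ranks 179 in replicate 1 (signal 150) and 309 in replicate 2 (signal 125). It lay 3191 bp upstream of the egl-46 start, the nearest start, and a TAATTA covered the summit base. Further egl-46 summits, 759 bp downstream and 1037 bp upstream of the start, ranked 1580 and 2141 in the relaxed list, and both had the core word. The partner gene egl-44 had no thresholded summit: its best, at rank 1553 (signal 119) and 367 bp upstream of an internal start, ranked 5016 in replicate 1 (signal 40.7) and 960 in replicate 2 (signal 78.8). A core word lay 73 bp from that egl-44 summit.

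The RFX gene daf-19, which controls the cilium genes of sensory neurons and makes long and short forms from separate starts, had a site at its first start and another in an intron. The upstream site, 261 bp before the first start, had a signal of 175 at rank 582, with ranks 753 in replicate 1 (signal 80.1) and 542 in replicate 2 (signal 96.1), and held no core word. The intronic site had a signal of 218 at rank 364, with ranks 222 in replicate 1 (signal 135) and 679 in replicate 2 (signal 88.4), and TAATTA 21 bp away. It lay 153 bp upstream of the start of transcript F33H1.1e.1, 723 bp downstream of that of F33H1.1d.1 and 2056 bp upstream of that of F33H1.1c.1. Another intronic summit with the core word, 327 bp upstream of the F33H1.1d.1 start, ranked 1441.

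**Figure D1:**
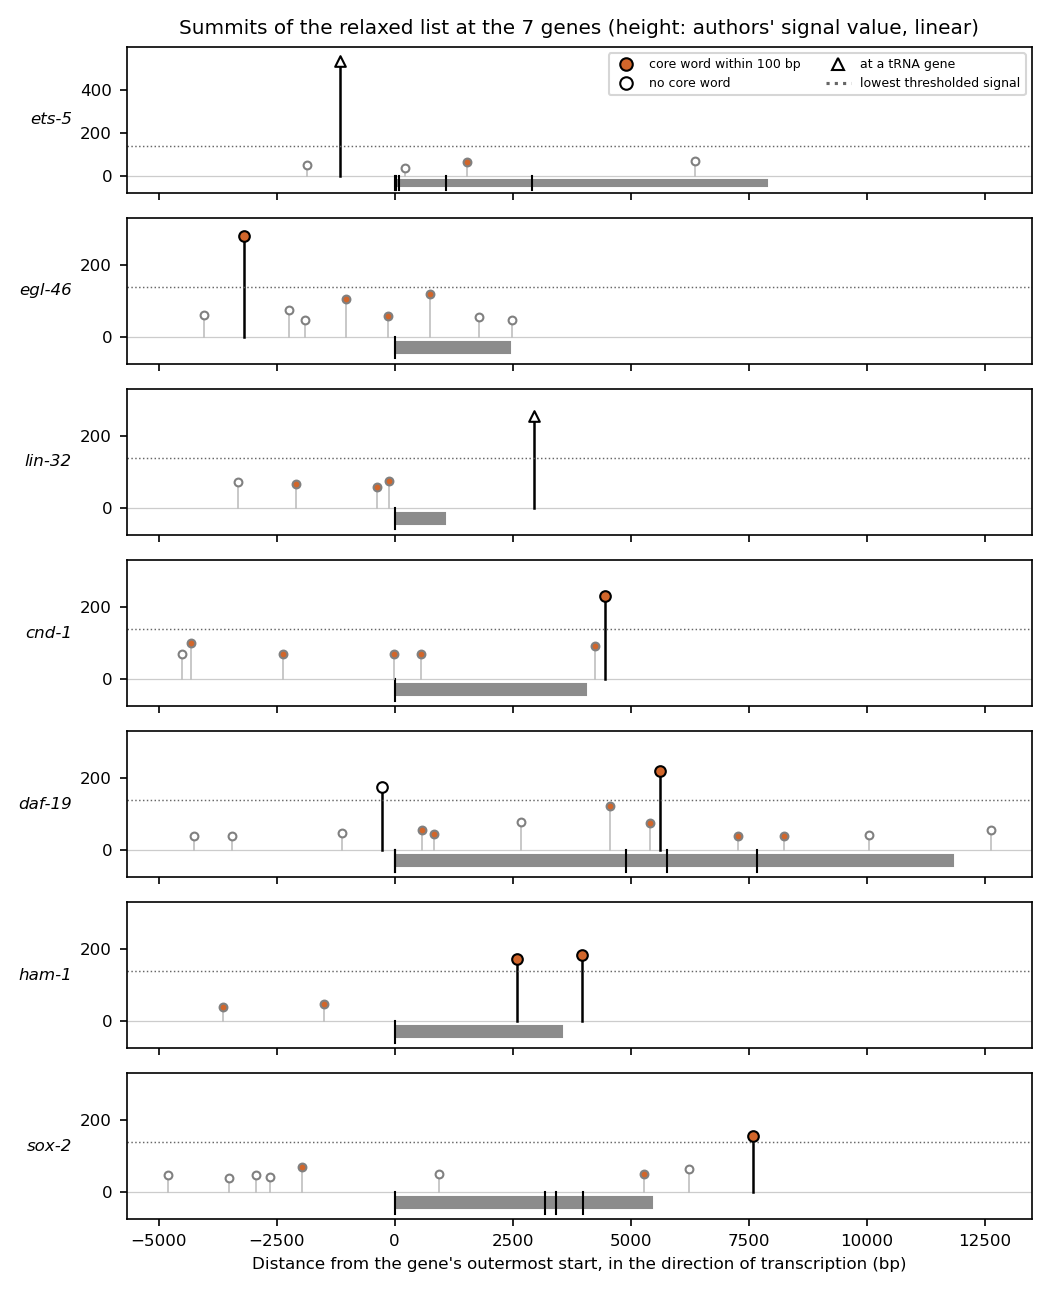
Summits of the relaxed list at the 7 genes with a thresholded summit, by distance in bp from the outermost start in the direction of transcription; height is the authors' signal value from both replicates on a linear scale. Gray bars are the genes, black ticks their starts, black stems the 9 thresholded summits, filled points those with the core word within 100 bp and triangles those at a tRNA gene; 4 of the 9 lie past the end of the gene.

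Of the 9 summits, 4 lay past the end of the gene, 3 before it and 2 in introns. For 7 of them the named gene had the nearest protein-coding start, and the exceptions were the cnd-1 site and the ham-1 site past its end. Only the sox-2 site and the intronic daf-19 site, 2 of the 9, lay in no other protein-coding gene's window. The ets-5 site was shared with pnk-4, egl-46 with K11G9.5, lin-32 with hex-1 and cnd-1 with prx-10. Both ham-1 sites were shared with ipmk-1, and the upstream daf-19 site with gpd-4 and wbp-11. When only summits nearest to a gene's own start were counted, 6 of the 37 genes had one, against 4.15% of all genes. With 2000 bp in place of 5000 bp around the starts, 3 genes remained (daf-19, ets-5 and ham-1), a share close to the 5.88% of all genes in that case. Over the windows, the density was 2.17 thresholded summits per 100 kb for the 37 genes and 1.03 for all genes, at a median window of 10007 and 10001 bp.

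By role, 4 of 10 early proneural genes and 3 of 9 terminal selectors had a thresholded summit, and 0 of the 18 other genes. Since the role groups were drawn with earlier results of these data known, these counts only describe the groups. Without summits at tRNA genes these counts were 3, 2 and 0, or 5 of the 37 genes, against 8.84% of all genes. The first 2 groups differ by less than a single gene would change, and no order between them can be read from these counts. By factor class, the counts were 2 of 6 for the Achaete-Scute, Atonal, Neurogenin and NeuroD type bHLH genes, 0 of 6 for the E protein and other bHLH genes and 0 of 3 for the bHLH-PAS genes. They were 1 of 2 for Sox, 3 of 5 for the RFX, ETS, TEAD, EBF and winged helix genes, 1 of 12 for zinc finger genes and 0 of 3 for nuclear receptors. The zinc finger share, 8.33%, was close to the 10.1% of all genes, and egl-46 was the single gene behind it. Classes of 2 to 12 genes give no firm order, and the differences between them were not tested.

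**Figure D2:**
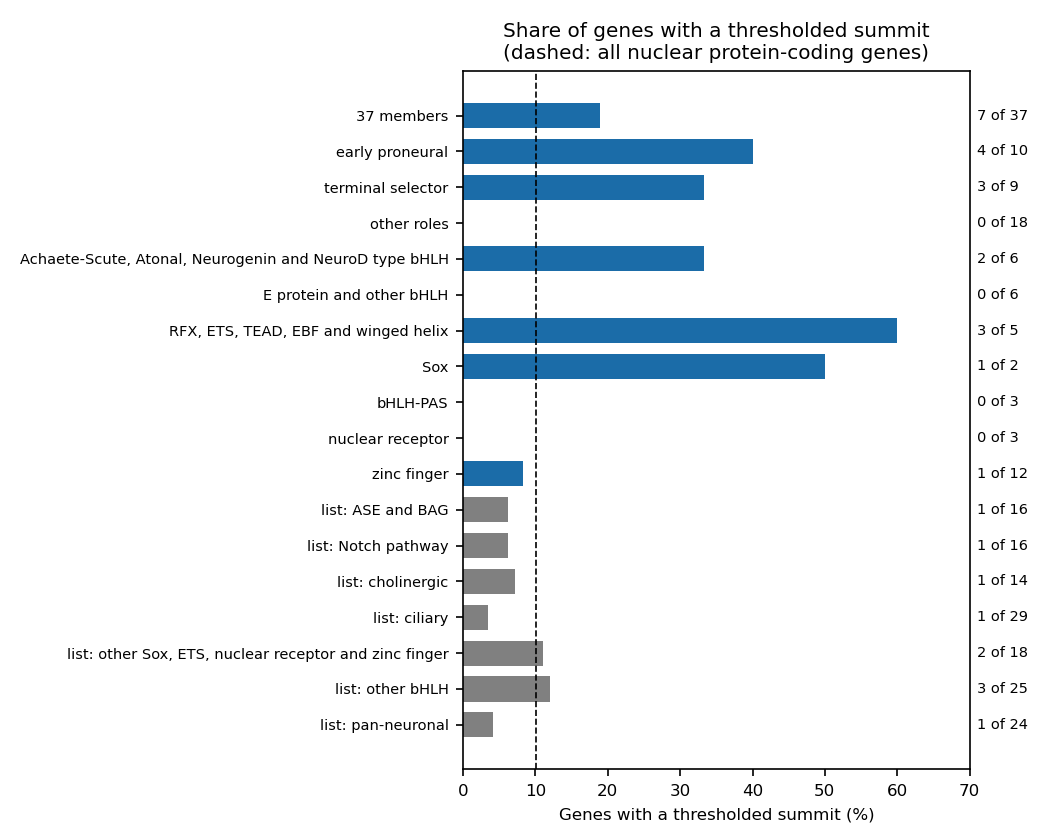
Percentage of genes with a thresholded summit in the gene or within 5000 bp of a start, for the 37 genes, their role groups and classes (blue) and other gene lists (gray), with counts at the right. The dashed line is the 10.1% of all nuclear protein-coding genes; the early and terminal groups stand at 40% and 33.3%, and the 18 other genes at 0.

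The replicates were next compared by their own strongest summits, as many from each as the thresholded list holds. In replicate 1, 9 of the 37 genes had such a summit, as did 1999 of the 19973 genes, and in replicate 2 also 9, as did 1939 of all genes. The sets overlapped in lin-32, cnd-1, daf-19, ets-5, ham-1 and egl-46, 6 genes, where 6.79% of all genes had a summit of that strength in each replicate. Replicate 1 alone added sox-2, hlh-34 and aha-1, and replicate 2 alone added ngn-1, egl-44 and ztf-11. With matching summits within 100 bp, 5 genes remained, since the cnd-1 summits are 121 bp apart.

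**Figure D3:**
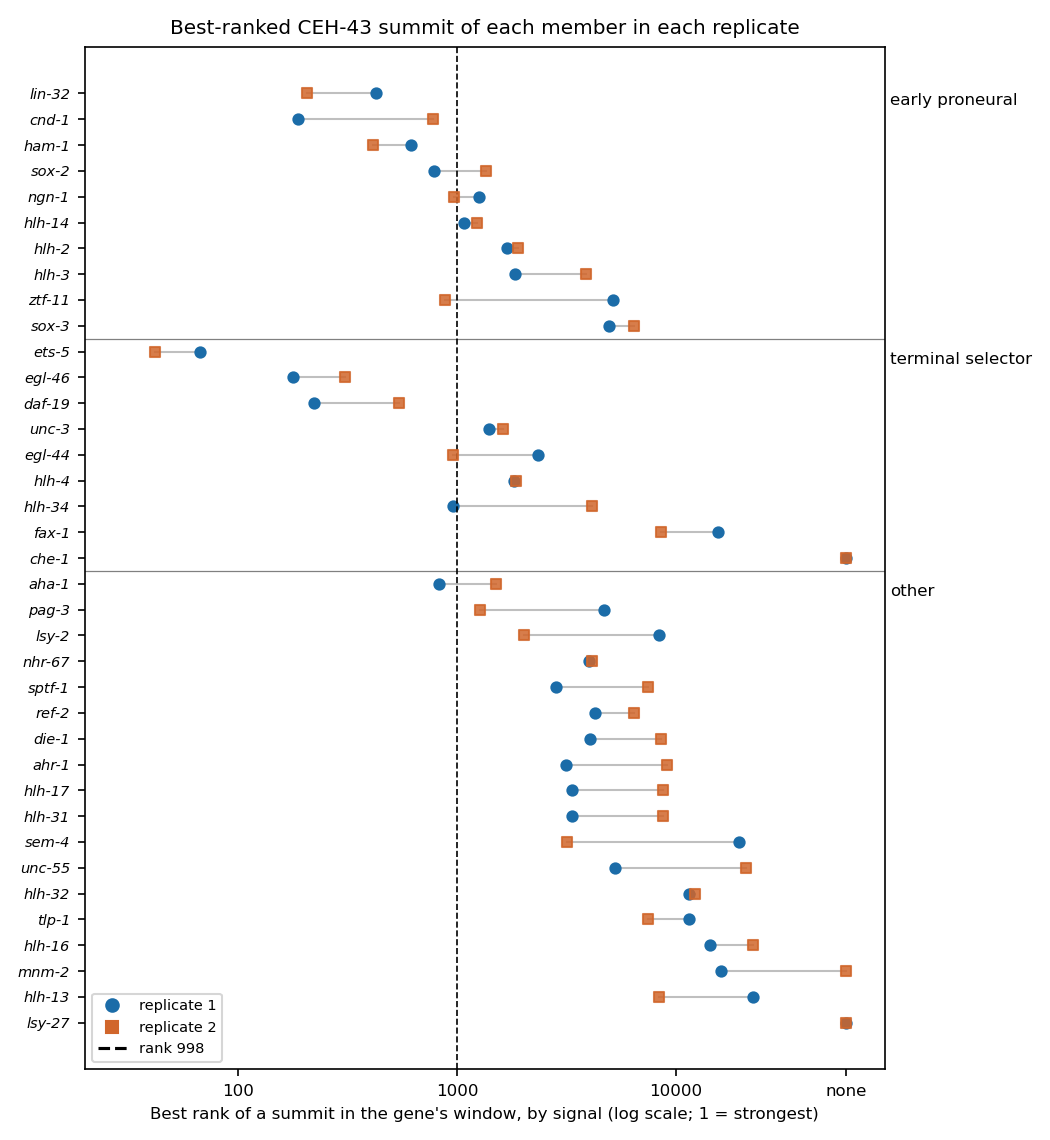
Best rank by signal (log axis, 1 is the strongest) of any summit in each gene's window in replicate 1 (circles) and replicate 2 (squares), for all 37 genes by role; "none" marks no summit. The dashed line is the full length of the thresholded list, its summits outside the nuclear chromosomes included. In 6 genes both points lie left of the line, and in che-1 and lsy-27 no list had a summit.

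Below the threshold, from rank 999 to rank 3000 of the relaxed list, 16 of the 37 genes had a summit, against 18.2% of all genes. They were 6 of 10 early genes, 6 of 9 terminal selectors and 4 of 18 others. With the thresholded summits included, the 3000 strongest reached 20 of the 37 genes, against 25.2% of all genes, since lin-32, ham-1, sox-2 and ets-5 had thresholded summits alone in that range. Over the whole relaxed list, thresholded summits included, the median best rank was 1034 for the early genes, 1553 for the terminal selectors, 4491 for the others and 7927 for all genes, with genes lacking a summit placed last. The 16 genes held 23 summits of ranks 999 to 3000, and 18 of these had a summit within 100 bp in both replicates. For 12 of the 23 the named gene had the nearest protein-coding start. These sites are weaker than the threshold and are described as ranks only.

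Of the early genes, hlh-14 had 3 summits in that range, all with the core word, at ranks 1043, 1512 and 2135. The first lay 3389 bp upstream of hlh-14 and ranked 1247 in replicate 1 (signal 65.5) but 7099 in replicate 2 (signal 44.3), and F10C1.9 had the nearer start. The second lay inside F10C1.9, whose start was also nearer, and ranked 1073 in replicate 1 and 5751 in replicate 2. At the third, C18A3.11 had the nearer start, and the replicate ranks were 1885 and 5582. The ngn-1 summit, 1205 bp past the gene and inside smf-3, a metal transporter gene, ranked 1266 in replicate 1 (signal 65.2) and 971 in replicate 2 (signal 78.6), with a core word 39 bp away. The E protein gene hlh-2 had a summit 1131 bp upstream at rank 1648 (signal 116), with ranks 1701 in replicate 1 (signal 58.9) and 1908 in replicate 2 (signal 63.8), and no core word. The replicates differed most at ztf-11, a Myt1-type neurogenesis factor, whose intronic summit ranked 885 in replicate 2 while no summit of replicate 1 lay within 100 bp. The best summits of hlh-3, an Achaete-Scute gene, and sox-3, the other SoxB gene, ranked 2538 and 3460.

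Of the terminal selectors, unc-3, of cholinergic motor neurons, had intronic summits at ranks 1298 and 1359, 7090 and 6162 bp downstream of its start, both with the core word. The first had a signal of 126 and ranked 1402 in replicate 1 (signal 62.97) and 1625 in replicate 2 (signal 66.7), while the second ranked 1574 and 4520. At hlh-4, the Achaete-Scute gene that specifies ADL neurons, the best summit ranked 1792, and T05G5.1 had the nearer start. At hlh-34, a bHLH-PAS gene of AVH neurons, the best summit ranked 2971 in the relaxed list. That summit ranked 956 in replicate 1, and replicate 2 had none within 100 bp. The summit lay 1322 bp past the gene, inside T01D3.3, whose start, 374 bp away, was nearer. The nuclear receptor gene fax-1 had its best summit at rank 11181 of the relaxed list, and its best in replicates 1 and 2 ranked 15519 and 8508. No list had a summit at che-1, the selector of ASE taste neurons.

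Among the 18 other genes, aha-1, the partner of PAS-domain bHLH factors, had the best summit, at rank 1051 (signal 136). It lay 206 bp upstream of aha-1, but C25A1.15 had the nearer start, and it ranked 827 in replicate 1 (signal 77.2), while the nearest summit of replicate 2 was 176 bp away at rank 1513 (signal 68.2). A core word lay 58 bp from the aha-1 summit of the relaxed list. The Gfi-type zinc finger gene pag-3 followed at rank 1870, 4880 bp upstream and nearer to the start of idpp-3, with ranks 4706 and 1273 in replicates 1 and 2, then lsy-2 at 2179 and the Tailless-type nuclear receptor gene nhr-67 at 2461. The pag-3 site is shown as the example of a weaker site away from the early and terminal genes, on the forward strand with the core letters in capitals.
pag-3, chrX:14959478-14959578: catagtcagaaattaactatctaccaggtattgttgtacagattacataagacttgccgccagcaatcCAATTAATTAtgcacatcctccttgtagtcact
In the remaining 14 genes (sptf-1, ref-2, die-1, ahr-1, hlh-17, hlh-31, sem-4, unc-55, hlh-32, tlp-1, hlh-16, mnm-2, hlh-13 and lsy-27) best ranks ran from 3586 at sptf-1, an Sp-type gene, to 27572 at hlh-13, and lsy-27 had no summit. The neighbours hlh-17 and hlh-31, Olig-type bHLH genes of glia, share their best summit, at rank 4491, and are not independent of each other.

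The core word was then compared across signal ranks. Within 100 bp it lay at 6 of the 9 thresholded summits, 66.7%, and at 44.8% of the 975 nuclear thresholded summits. TAATTA itself lay at 66.7% and 27.6%, and away from tRNA genes the core word lay at 6 of 7 against 51.5%. Counted per gene, 5 of the 37 genes had a thresholded summit with the core word, against 4.37% of all genes. A thresholded summit at a tRNA gene was held by 2 of the 37 genes, against 1.45% of all genes. Per summit, 2 of the 9 lay at a tRNA gene, 22.2%, against 15.8% of the 975. Between ranks 999 and 3000 the core word lay at 20 of 23 summits, 87.0%, against 53.0% of all nuclear summits of those ranks. The 3 without it were the hlh-2 and lsy-2 summits and the second ngn-1 summit.

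Past rank 3000 the excess over all summits was smaller, with 57.8% of 45 summits against 46.3% up to rank 10000 and 45.5% of 101 against 37.8% beyond. The word is common in these windows: any stretch of 201 bp held it at 27.9% of positions 100 bp apart in the members' windows and at 23.5% of positions in the windows of all genes. Of other words within 100 bp, the E-box CANNTG of bHLH factors lay at 5 of 9 summits, 55.6%, against 57.2% of all. The ETS-type word CCGGAA and the GATA-type word TGATAA lay at 0 of 9, against 6.67% and 8.21%. The median share of G and C within 50 bp was 46.5% for the 9 summits and for all thresholded ones.

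**Figure D4:**
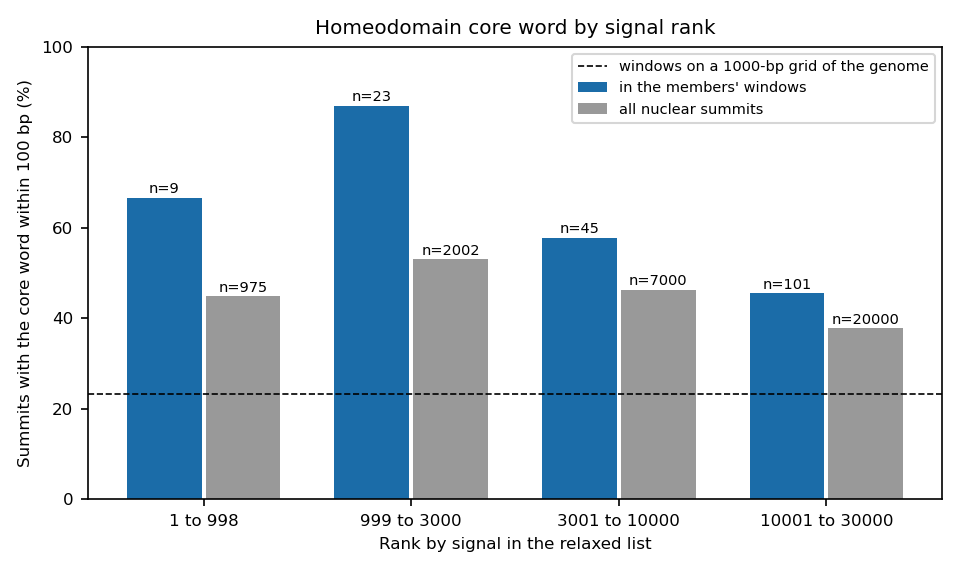
Percentage of relaxed-list summits with TAATTA or TAATTG within 100 bp, by rank of signal, for summits in the windows of the 37 genes (blue) and all nuclear summits (gray), with the number of summits above each bar. The dashed line is the 23.2% of positions on a 1000-bp grid of the genome; the blue bars are 66.7%, 87.0%, 57.8% and 45.5%.

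Lists of other regulators had shares near the 10.1% of all genes. Of 25 other bHLH genes, 3 had a thresholded summit: hlh-27, a gene of the REF-1 family that acts in Notch signalling (signal 371 at rank 127, with the core word, and signal 228 at rank 333, without it), hlh-33 (346) and mdl-1, a Mad-type gene (214). The start of ins-13 was nearer to both hlh-27 summits, and that of ddp-1 was nearer to the hlh-33 summit. Of 18 other Sox, ETS, nuclear receptor and zinc finger genes, 2 had one: ast-1, the ETS factor of dopamine neurons (163, in an intron, no core word), and nhr-6 (147, with the core word). The Notch pathway had 1 of 16, adm-4, at a tRNA gene and nearer to the start of ZK154.6.

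Each list of genes of neuronal function had 1 gene with a thresholded summit, too few to set its share apart from the 10.1% of all genes. Of 24 pan-neuronal genes 1 had a thresholded summit, unc-104, the kinesin of synaptic vesicles (signal 291, intron, ranks 307 and 175 in replicates 1 and 2). Of 29 ciliary genes, the class that daf-19 controls, 1 had it, che-13 (166), and of 14 cholinergic genes, ric-3 (162). Other genes had the nearer start, F59C6.18 at the che-13 summit and cdgs-1 at the ric-3 summit. The che-13 summit lay in the windows of 8 genes, che-13 included. Of 16 genes of ASE and BAG neurons, gcy-33, a guanylate cyclase of BAG neurons, had a strong site (signal 490 at rank 69) that lay, as at ets-5, at a tRNA gene and without the core word.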

How the data were processed

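Peak lists of the chromatin immunoprecipitation were used as the authors deposited them, in narrowPeak format on ce11: a thresholded list from both replicates, a relaxed list from both, and a relaxed list for each replicate. Per the text deposited with them, each list derives from the replicates' alignments and 1 control, and the thresholded list from an irreproducible discovery rate step. Aligner, peak caller and cutoff: not given in the sources used here. The authors' peak signal is a deposited value of unstated scale and was ranked within each list. Ranks did not use the −log10 q-value that the authors deposited, since 867 of the thresholded summits, all 9 described here among them, share the highest value, 2.12. The lists hold no read counts, so the depth behind a peak is unknown.

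Genes came from Ensembl release 115 on WBcel235 and the sequence from RefSeq. Summits on all 7 sequences lay within their lengths. Summits of 2 lists matched within 100 bp. The core word and tRNA genes (612 nuclear) were sought within 100 bp of the summit. Members, role groups, lists and alternatives were chosen with earlier results of these data known, so no test was made and shares stand beside those of all genes or summits. Replicates are called biological by the labels. By the rule for named genes, every member with a thresholded summit is described with each summit, of the others the 6 with the best rank have full values, and from other lists up to 4 genes are named. Some departures were made after values were seen: further members below those 6 are named with ranks, sequences run 50 bp rather than the planned 30 to each side, and the list of other Sox, ETS, nuclear receptor and zinc finger genes was not in the plan and had its label reworded, with its genes unchanged. Counting of windows and words was tested on simulated data. Python 3.11.15 and pandas 2.3.3 were used.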

Additional observations from a re-analysis of the deposited data

How the results depend on the processing

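Of 58 recomputed values, 46 stayed within 1.5 times the reported count or within its exact 95% counting interval, and 12 did not. With the strongest summits of a single replicate, as many as the thresholded list holds, 9 genes and 11 summits were counted with either replicate left out, 4 to 5 early genes, 4 terminal selectors, and 72.7% with the core word. Of the 7 genes, sox-2 was lost without replicate 1. With 2 times as many peaks, from the relaxed list, 15 genes, 22 summits, 7 early genes and 6 terminal selectors were counted, more peaks being tested. With 2000 bp around the starts there were 3 genes, 4 summits, 1 early gene and 1 summit at a tRNA gene, the window being smaller. Among thresholded peaks above the median rank there were 5 summits and 2 early genes. Genes with a summit in both replicates were 3 when each list was cut at that median rank and 13 when it was 2 times as long as the thresholded list. The share with the core word ran from 44.4% (within 25 bp) to 85.7% (without summits at tRNA genes), and TAAT alone lay at 88.9%. Over all nuclear thresholded summits these shares were 20.8%, 51.5% (away from tRNA genes) and 80.6%. All 12 alternatives of the core-word share were among the 46. The interval of a share of 9 summits is wide, so this is a weak check. Moving hlh-4, which had no thresholded summit, to the early genes could not change the counts of 4 early genes and 3 terminal selectors. Its values are among the 46 but check nothing. With daf-19 left out, 2 terminal selectors were counted. No paired analysis was possible because there is 1 group. With 9 summits, 1 summit moves a share by a large step.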
